A study of Rattus norvegicus with 9 samples.

Results

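Transcripts of 10 genes for basement membrane components and type VI collagen were followed in 9 poly(A) RNA libraries from rat femora. The genes were Col4a1, Col4a2, Lama4, Nid1, Hspg2, Col15a1, Col18a1, Col6a1, Col6a2 and Col6a3, out of 32623 gene rows in the deposited table. They were taken by their symbols, and 8 of the 10 had a row under that symbol. Col6a3 and Hspg2 stood under placeholder symbols. Col6a3 was found through the NCBI gene number in the row's description and Hspg2 through a RefSeq synonym, so both are kept out of counts over the 8 genes and are given beside them.

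All libraries are labelled femur and genotype WT. The control libraries carry the label SD rat, read here as Sprague-Dawley, and the labels of the other groups name no strain. The 3 groups, with 3 libraries each, were rats labelled as treated with Desertliving Cistanche herb, a plant of traditional Chinese medicine (treated), rats without ovaries (ovariectomized), and normal rats (control). The title of the series places the herb in ovariectomized animals, as a model of osteoporosis after menopause. Age, dose, duration of treatment and whether each library is a separate animal were not given in the sources used here. The p-values therefore measure only the spread among the libraries, which may be technical.

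A basement membrane is a thin sheet of matrix under endothelium and epithelium and around muscle, fat and Schwann cells. Its scaffold consists of a laminin network and a type IV collagen network, joined by nidogen and the proteoglycan perlecan, with the collagens XV and XVIII on its outer side. Type VI collagen forms beaded filaments between basement membranes and the fibrillar matrix, and surrounds cells in tendon, periosteum and bone. In a femur the sources include marrow vessels, marrow fat, nerve, attached muscle and periosteal fibroblasts.

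Type IV and type VI collagen transcripts lay on opposite sides of zero in both comparisons with control rats. Col4a1 and Col4a2 had positive estimates in ovariectomized and in treated femora, and Col6a1, Col6a2 and Col6a3 had negative ones. Of these, one difference passed a test adjusted over all genes, and by DESeq2 only: Col6a1 was lower in treated than in control femora. No gene of the 10 passed with edgeR.

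Levels are given as FPKM, the authors' value scaled for gene length and library depth. It can be compared between genes where a row covers the whole gene. The counts and FPKM of the Hspg2 row imply a length of 7878 to 7906 bases, and whether this row covers the whole gene was not tested. Libraries held 54992823 to 66531156 counts. The lowest count of any of the 10 genes in any library was 524 (Col15a1), and Col6a1 was never below 3610, so counting error was small beside the spread between libraries. In mean FPKM over the 9 libraries the order was Col6a1 (28.4), Col6a2 (24.9), Col4a1 (18.6), Col4a2 (11.7), Nid1 (11.1), Col6a3 (9.25), Lama4 (6.98), Hspg2 (6.20), Col18a1 (2.84) and Col15a1 (2.22). All 10 were above the mean of 1 FPKM that was asked of a gene for testing. Control replicate 3 stood apart among the control libraries, with the lowest level of all 9 for both type IV chains and the highest for all 3 type VI chains and Hspg2.

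The 3 stretches of promoter below belong to chains that varied together across the libraries, and whether their sequence bears on this was not tested. They are the interval between the starts of Col4a1 and Col4a2, the 250 bases before the start of Col6a1, and the outer 148 bases of the Col6a3 window. They come from RefSeq on build GRCr8, in a table of windows of 250 bases before to 50 after each start, and are written 5′ to 3′ on the strand named, in lower case with a GC box (GGGCGG, or CCGCCC on the other strand) in capitals. The first is chr16:84885521-84885596 on the plus strand, the second chr20:11905440-11905689 on the plus strand and the third chr9:98887061-98887208 on the minus strand. The Col6a3 bases nearer the start lie inside the span of the gene in RefSeq, which begins further upstream, and are left out.
Col4a1 and Col4a2: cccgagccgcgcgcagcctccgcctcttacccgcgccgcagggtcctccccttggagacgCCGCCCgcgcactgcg
Col6a1: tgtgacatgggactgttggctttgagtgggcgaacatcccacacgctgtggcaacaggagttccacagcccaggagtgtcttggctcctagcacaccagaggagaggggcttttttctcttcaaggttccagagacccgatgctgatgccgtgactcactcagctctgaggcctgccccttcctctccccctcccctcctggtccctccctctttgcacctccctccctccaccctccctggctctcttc
Col6a3: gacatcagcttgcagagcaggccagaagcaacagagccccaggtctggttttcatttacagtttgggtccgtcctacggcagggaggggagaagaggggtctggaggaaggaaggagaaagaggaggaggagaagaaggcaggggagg

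In GRCr8 the type IV pair stands head to head: Col4a2 starts on the minus strand 76 bases from the start of Col4a1 on the plus strand, and the interval holds 1 GC box. The printed bases of Col6a1 and Col6a3 hold no GC box, no CCAAT box (CCAAT or ATTGG) and no TATA box (TATAAA or TTTATA). A window was at hand for 9 of the 10 genes, all but Col6a2. Over these windows of 300 bases, searched on both strands, 5 held a GC box, 3 a CCAAT box and 1, that of Lama4, a TATA box. Of all 33469 windows in the table, 33.1% held a GC box, 37.5% a CCAAT box and 14.2% a TATA box, so the matches are a description of these letters and not of any factor. In the deposited table's own coordinates (build not given in the sources used here), the 2 type IV genes lie 83600 bases apart on opposite strands of chromosome 16.

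Col4a1 and Col4a2 encode the chains of the type IV collagen found in nearly all basement membranes. The table places Col4a1 (ENSRNOG00000016281) on chromosome 16 at 83522162 to 83632153. It had 21.9, 16.0 and 25.9 FPKM in treated femora, 23.7, 19.0 and 20.7 FPKM in ovariectomized femora and 14.1, 16.8 and 9.50 FPKM in control femora. All 3 ovariectomized libraries lay above all 3 control libraries, whereas the treated group had 1 library, replicate 2, inside the control range.

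The mean level of Col4a1 was 21.3 ± 4.97 FPKM in treated, 21.1 ± 2.40 FPKM in ovariectomized and 13.5 ± 3.69 FPKM in control femora (SD, n = 3 each). The log2 fold change was 0.60 ± 0.24 (SE) for ovariectomized against control rats, with an adjusted p of 0.972 (edgeR), and 0.56 ± 0.24 for treated against control rats, with an adjusted p of 0.565. Treated against ovariectomized rats gave -0.03 ± 0.24. Without control replicate 3 the difference between ovariectomized and control rats was 0.38, and that between treated and control rats 0.34. In a bulk sample, fewer cells of a type and less RNA per cell cannot be told apart.

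Col4a2 (ENSRNOG00000023972, chromosome 16 at 83387364 to 83438561) had lower levels than Col4a1. It had 13.0, 9.11 and 17.4 FPKM in treated femora, 14.9, 12.1 and 12.9 FPKM in ovariectomized femora and 8.60, 11.0 and 6.41 FPKM in control femora. Again the ovariectomized libraries stood clear of the control libraries and the treated group had 1 library, replicate 2, inside the control range. The log2 fold changes were 0.56 ± 0.27 for ovariectomized against control rats, 0.50 ± 0.27 for treated against control rats and -0.06 ± 0.26 between treated and ovariectomized rats. Without control replicate 3 the difference between ovariectomized and control rats was 0.36, and without treated replicate 3 that between treated and control rats 0.27.

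The ratio of Col4a2 to Col4a1 within a library stayed between 0.568 and 0.675 in all 9, a range of 1.19-fold, while each gene alone ranged over 2.7-fold. It was 0.610 ± 0.0538 in treated, 0.629 ± 0.00704 in ovariectomized and 0.647 ± 0.0340 in control femora (SD, n = 3 each). No pair of groups was separated in an exact 2-sided permutation test (p from 0.3 to 0.6), a test that with 3 against 3 libraries cannot go below 0.1.

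Lama4 encodes the laminin alpha chain of vessel walls and of fat cell basement membranes, and Nid1 the linker between laminin and type IV collagen. Lama4 (ENSRNOG00000000599, chromosome 20 at 44060731 to 44209614) had 7.49, 5.96 and 9.07 FPKM in treated femora, 7.65, 6.52 and 8.06 FPKM in ovariectomized femora and 5.44, 6.51 and 6.08 FPKM in control femora. The lowest ovariectomized library was barely above the highest control library, and after TMM scaling of counts the 2 groups overlapped. The log2 fold change against control rats was 0.26 ± 0.15 for ovariectomized and 0.23 ± 0.15 for treated rats.

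Nid1 (ENSRNOG00000002461, chromosome 17 at 90553394 to 90627101) had 12.1, 9.14 and 13.7 FPKM in treated femora, 14.4, 10.03 and 11.2 FPKM in ovariectomized femora and 9.06, 9.61 and 10.5 FPKM in control femora. The control libraries were close together, and the other 2 groups reached from their level upward. Its log2 fold change was 0.25 ± 0.17 for ovariectomized and 0.17 ± 0.17 for treated against control rats. These were 0.08 without ovariectomized replicate 1 and 0.06 without treated replicate 3. For both genes the treated against ovariectomized estimate was small, -0.02 ± 0.15 for Lama4 and -0.07 ± 0.17 for Nid1.

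Hspg2 encodes perlecan, a large heparan sulfate proteoglycan of basement membranes and cartilage. Its row (ENSRNOG00000021437, chromosome 5 at 155812105 to 155885829) had 5.26, 5.50 and 6.39 FPKM in treated femora, 7.07, 5.34 and 7.36 FPKM in ovariectomized femora and 5.11, 5.15 and 8.65 FPKM in control femora. One control library, replicate 3, was above all others, and in FPKM the other 2 control libraries were the lowest of the 9. After TMM scaling of counts, treated replicates 1 and 2 (41.25 and 42.18) were below these 2 control libraries (42.32 and 43.34). The estimates were -0.25 ± 0.20 for treated against ovariectomized, 0.03 ± 0.20 for ovariectomized against control and -0.22 ± 0.20 for treated against control rats; the last was 0.04 without control replicate 3.

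Col15a1 and Col18a1 encode the collagens that tie basement membranes to the matrix beneath, and the end of the Col18a1 protein is released as endostatin. Both were low. Col15a1 (ENSRNOG00000060381, chromosome 5 at 62840360 to 62950240) had 1.88, 1.56 and 2.30 FPKM in treated femora, 2.14, 2.49 and 3.29 FPKM in ovariectomized femora and 1.80, 2.18 and 2.31 FPKM in control femora. The highest treated library reached just into the ovariectomized range. Its log2 fold change for treated against ovariectomized rats was -0.51 ± 0.20, with an unadjusted p of 0.0309 and an adjusted p of 0.929 (edgeR).

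Col18a1 (ENSRNOG00000001229, chromosome 20 at 12225202 to 12332858) had 2.44, 2.45 and 3.88 FPKM in treated femora, 2.86, 2.58 and 3.71 FPKM in ovariectomized femora and 2.11, 2.92 and 2.62 FPKM in control femora. The 3 groups overlapped throughout, and its 3 estimates lay between -0.11 and 0.21, with SEs of 0.22.

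**Figure D1:**
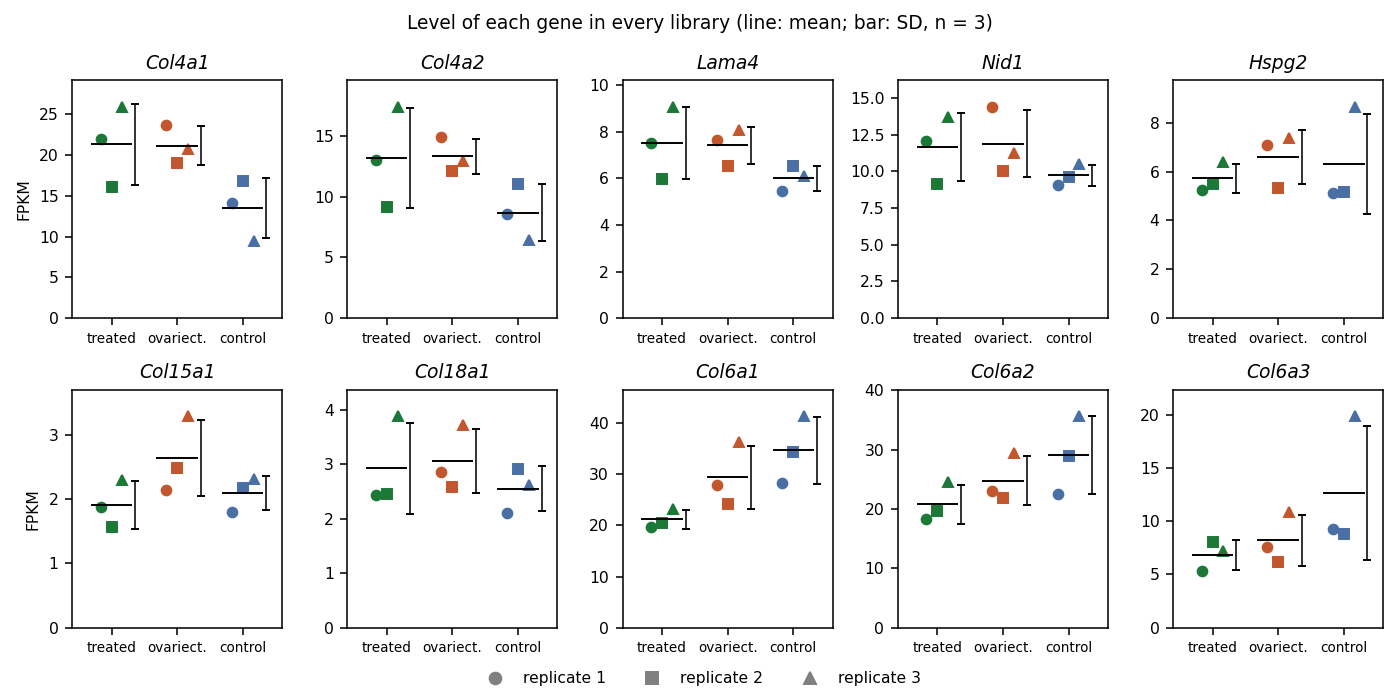
FPKM of each gene in every library of the treated, ovariectomized and control groups. Horizontal lines are means, bars SD (n = 3), and symbols mark the replicate number. Whether this number pairs libraries was not given. Col4a1 and Col4a2 in ovariectomized femora lie above every control library, Col6a1 in treated femora lies below every other library, and control replicate 3 is at the bottom for type IV and at the top for type VI chains.

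For type VI collagen the estimates had the opposite sign. Col6a1, Col6a2 and Col6a3 encode the chains that join into its basic unit, Col6a3 being the longest. Col6a1 (ENSRNOG00000001249, chromosome 20 at 12658065 to 12675561) had 19.6, 20.6 and 23.3 FPKM in treated femora, 27.9, 24.2 and 36.2 FPKM in ovariectomized femora and 28.4, 34.4 and 41.4 FPKM in control femora. All 3 treated libraries lay below all 6 others, and the ovariectomized and control libraries overlapped.

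Col6a1 averaged 21.2 ± 1.89 FPKM in treated, 29.5 ± 6.16 FPKM in ovariectomized and 34.7 ± 6.53 FPKM in control femora (SD, n = 3 each). For treated against control rats its log2 fold change was -0.80 ± 0.16 (SE). The unadjusted p was 0.000961 and the adjusted p 0.413 with edgeR, while DESeq2 gave -0.80 with an adjusted p of 0.00176. DESeq2 called the gene with each of the 9 libraries left out in turn, at -0.91 without control replicate 1 to -0.69 without control replicate 3. Against ovariectomized rats, treated rats gave -0.52 ± 0.16, with an adjusted p of 0.929 (edgeR) or 0.306 (DESeq2). Ovariectomized against control rats gave -0.28 ± 0.16.

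Col6a2 (ENSRNOG00000001254, chromosome 20 at 12773427 to 12801180) had 18.3, 19.7 and 24.5 FPKM in treated femora, 23.0, 21.9 and 29.5 FPKM in ovariectomized femora and 22.5, 29.0 and 35.6 FPKM in control femora. On this scale treated replicate 3 exceeded control replicate 1; in CPM (counts scaled by library size and TMM factors) the same libraries had 90.7 and 90.8, and the groups just failed to overlap. The log2 fold change for treated against control rats was -0.56 ± 0.17, with an adjusted p of 0.479 (edgeR) or 0.111 (DESeq2). It was -0.29 ± 0.17 for treated against ovariectomized and -0.27 ± 0.17 for ovariectomized against control rats, and these were -0.16 without ovariectomized replicate 3 and -0.13 without control replicate 3.

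Col6a3 (ENSRNOG00000019648, chromosome 9 at 97926787 to 98004546) had 5.33, 8.07 and 7.20 FPKM in treated femora, 7.59, 6.22 and 10.9 FPKM in ovariectomized femora and 9.26, 8.80 and 19.9 FPKM in control femora. Control replicate 3 was far above the other control libraries, yet the treated libraries were below the other 2 control libraries as well. The log2 fold change for treated against control rats was -0.95 ± 0.32, with an adjusted p of 0.489 (edgeR) or 0.105 (DESeq2), and -0.51 without control replicate 3. Ovariectomized against control rats gave -0.65 ± 0.32, and -0.21 without that library. With control replicate 1 left out DESeq2 called Col6a2 and Col6a3 as well as Col6a1, and with control replicate 2 left out Col6a3 and Col6a1.

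Within the type VI trio the chains did not keep one proportion. The ratio of Col6a2 to Col6a1 was 0.931, 0.956 and 1.05 in treated femora, 0.824, 0.902 and 0.814 in ovariectomized femora and 0.794, 0.842 and 0.861 in control femora. All treated libraries were above all others, and the remaining groups overlapped. The exact 2-sided permutation p was 0.1 for treated against each other group, the smallest that 3 against 3 libraries allow, and 0.45 after adjustment over the 9 ratio tests. The ratio of Col6a3 to Col6a1 ranged from 0.256 to 0.481, with the highest value in control replicate 3 and no separation of groups (exact permutation p from 0.3 to 0.8).

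Setting both collagens in one number, Col4a1 and Col4a2 together had 0.807, 0.521 and 0.787 times the summed FPKM of the 3 type VI chains in treated femora, 0.661, 0.593 and 0.439 times in ovariectomized femora and 0.378, 0.386 and 0.164 times in control femora. Every library of the treated and the ovariectomized groups was above every control library, and these 2 groups overlapped each other. The sum for type VI was 43.3 to 55.0 FPKM in treated, 52.3 to 76.6 FPKM in ovariectomized and 60.1 to 97.0 FPKM in control femora. This ratio was formed after the values were known and was not tested.

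**Figure D2:**
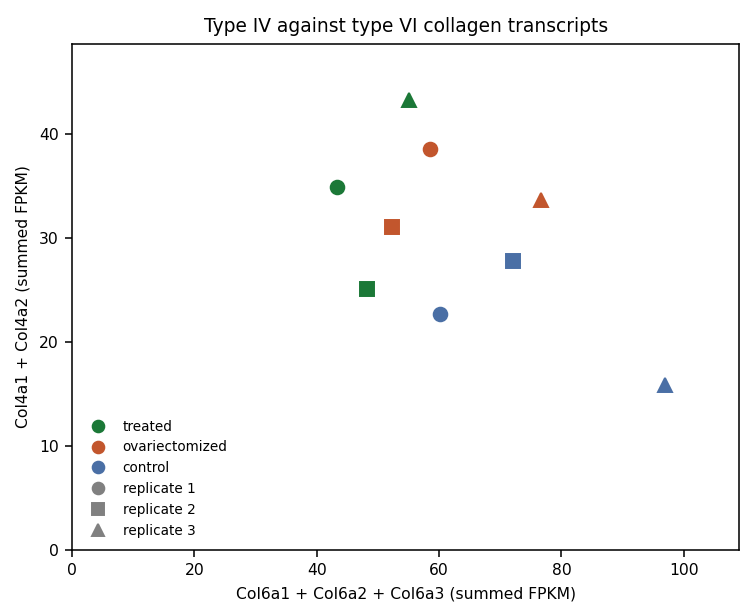
Summed FPKM of Col4a1 and Col4a2 (vertical) against that of Col6a1, Col6a2 and Col6a3 (horizontal), 1 point a library, colour for the group and symbol for the replicate number. On the vertical axis the ovariectomized libraries (31.05 to 38.62) lie above the control libraries (15.91 to 27.82). On the horizontal axis the treated libraries (43.26 to 55.0) lie below the control libraries (60.11 to 96.95). The other pairs of groups overlap on each axis. By the ratio of the axes the treated and ovariectomized libraries (0.439 to 0.807) lie above the control libraries (0.164 to 0.386).

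For treated against ovariectomized rats, all 8 genes matched by symbol, and the other 2, had estimates below zero, with a median of -0.09 over the 8. Of all 13886 genes tested 7085 were below zero, and the median of all genes was -0.00 in this and the next comparison and 0.00 in the last. The edgeR test called 0 of the 8 at an adjusted p under 0.05, as it called 0.0% of all genes. At an unadjusted p under 0.05 it passed 2, Col6a1 and Col15a1, both lower, where 5.2% of all genes passed. The CPM ranges of the groups did not overlap for 1 of the 8, Col6a1, against 12.4% of all genes. DESeq2 called none of the 8 and 0.253% of all genes. The median depended on single libraries, at -0.32 without treated replicate 3 and 0.04 without treated replicate 2.

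Between ovariectomized and control rats, 6 of the 8 had estimates above zero, the exceptions being Col6a1 and Col6a2, and the median was 0.25, or 0.15 without ovariectomized replicate 3. By edgeR 0 of the 8 passed the adjusted test, against 0.0% of all genes, and 1 of the 8, Col4a1, passed the unadjusted one, against 5.05%. Groups did not overlap for 2 of the 8, Col4a1 and Col4a2, against 8.94% of all genes. DESeq2 called 0 of the 8, where it called 0.435% of all genes.

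For treated against control rats, 5 of the 8 had estimates above zero and 3 below, around a median of 0.14. Again 0 of the 8 passed edgeR's adjusted test, against 0.0% of all genes. Unadjusted, 3 of the 8 passed (Col4a1 higher, Col6a1 and Col6a2 lower), and so did Col6a3 (lower), against 8.81% of all genes. Groups did not overlap for 2 of the 8, Col6a1 and Col6a2, nor for Col6a3, against 13.1%. DESeq2 called 1 of the 8, Col6a1, against 1.11% of all genes. With the 2 genes found through identifiers the median became -0.06, since Col6a3 and Hspg2 both had negative estimates. These 3 comparisons share libraries in pairs, so they are not independent of each other.

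**Figure D3:**
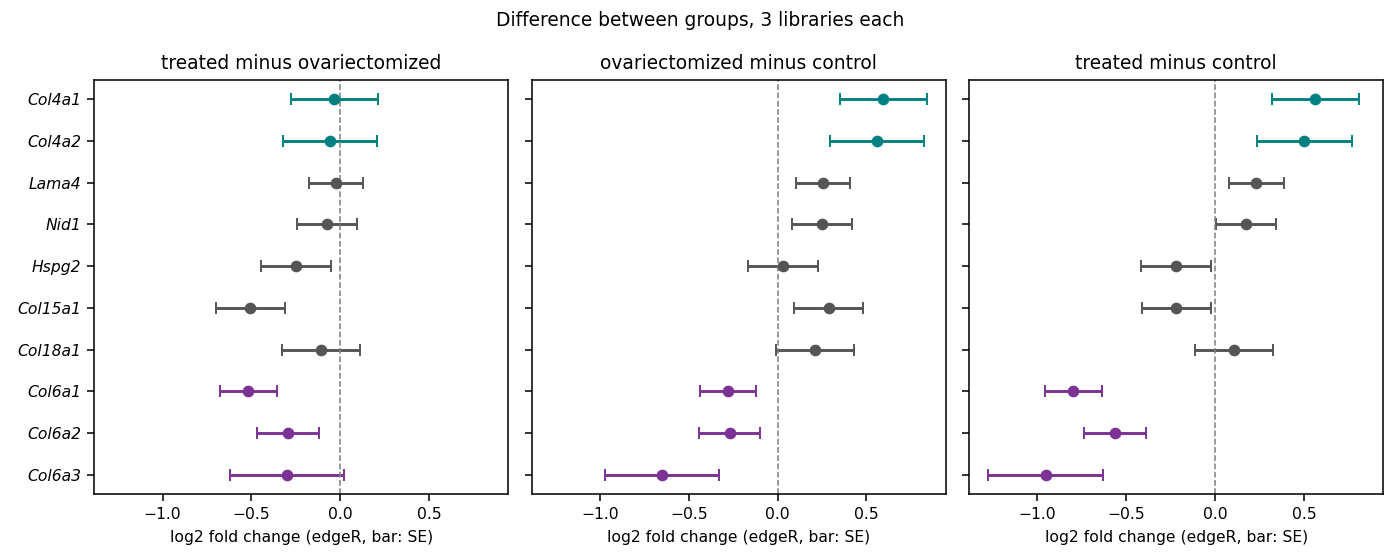
Log2 fold change of each gene with its SE (edgeR, 3 libraries a group) for treated minus ovariectomized, ovariectomized minus control and treated minus control, from left to right. Type IV chains (teal) sit near 0.5 to 0.6 in both comparisons with control rats and near 0 between treated and ovariectomized rats, and type VI chains (purple) are left of 0 in all 3.

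Across the 9 libraries the chains of one collagen varied together. Of 45 pairs, 8 had a Pearson correlation of log2 CPM with an adjusted p under 0.05 (exact permutation of the libraries, Benjamini-Hochberg over the 45), and all 8 were positive. Col4a1 and Col4a2 had r = 0.982 and rho = 0.983 (adjusted exact permutation p of 0.000372 and 0.00223), r = 0.972 without the 2 libraries farthest from the median of Col4a1, and r = 0.976 in deviations from the group means. Among all 13885 other tested genes Col4a2 ranked first in likeness to Col4a1.

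Col6a1 and Col6a2 had r = 0.955 and rho = 0.950 (adjusted exact permutation p of 0.00205 and 0.00794), r = 0.920 without the 2 farthest libraries and r = 0.944 within groups. Col6a2 ranked 4 and Col6a3 ranked 117 among the genes most like Col6a1. Col6a3 had r = 0.841 with Col6a1 and 0.856 with Col6a2. Lama4 was the member with most partners outside its own assembly, with r = 0.864 to Col4a2, 0.797 to Col4a1, 0.828 to Nid1 and 0.823 to Col18a1. For these 6 pairs the adjusted exact permutation p lay between 0.0179 and 0.0443 for r and between 0.0406 and 0.0465 for rho. Without the 2 farthest libraries their r was 0.609 to 0.927.

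The lowest correlation was that of Col4a1 with Col6a3, r = -0.80 and rho = -0.65, with adjusted exact permutation p of 0.0828 and 0.193. This r was -0.38 without treated replicate 3 and control replicate 3, and thus rested largely on them. In deviations from the group means, with all 9 libraries, it was -0.677. Col4a1 with Col6a1 gave r = -0.50 over all 9 libraries, 0.016 without the same 2 and -0.141 in deviations from the group means. Hspg2 was closer to the type VI chains (r = 0.653 to 0.740) than to Col4a1 (r = -0.33), though none of these passed adjustment. In deviations from the group means r was 0.784 with Col6a1, 0.764 with Col6a2, 0.877 with Col6a3 and -0.406 with Col4a1. Without the 2 libraries farthest from the median of the other gene, the order did not hold. Then r was 0.349 with Col6a1, 0.759 with Col6a2, 0.249 with Col6a3 and 0.594 with Col4a1. The libraries left out were not the same for all of these pairs, so these last values are not strictly comparable.

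**Figure D4:**
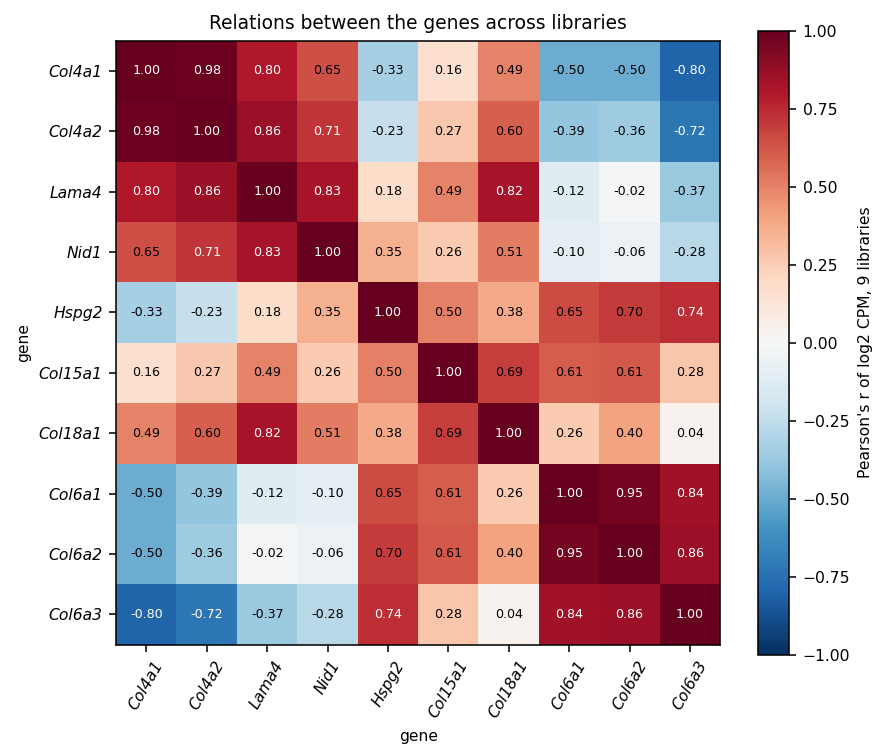
Pearson's r of log2 CPM between the 10 genes over 9 libraries, red for positive and blue for negative values. The Col4a1 and Col4a2 cell (0.982) and the Col6a1 and Col6a2 cell (0.955) are the strongest, and the cells between type IV and type VI chains are negative, down to -0.80 for Col4a1 with Col6a3.

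The 5 genes outside the set most like Col4a1 were Mcam, an adhesion molecule of vessel wall cells that is also in the pericyte list below (r = 0.969), Aoc3, an amine oxidase of smooth muscle and fat cells (0.969), Aqp7, the glycerol channel of fat cells (0.965), Phlda3 (0.960) and Lgals12, a galectin of fat cells (0.953), over the 9 libraries. Those most like Col6a1 were Usp36 (0.973), Zc3h18 (0.962), Zfyve1 (0.958), Bysl (0.952) and Postn, the matrix protein periostin of periosteum (0.945). The log2 fold change of Postn was -1.27 for treated against ovariectomized and -1.69 for treated against control rats, and that of Aoc3 1.30 for ovariectomized and 1.25 for treated against control rats.

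Markers of other cell types were read beside these values. All 10 adipocyte markers, of which Fabp4, Cfd and Adipoq were highest, were detected in every library. Their summed level was 1101 to 1826 FPKM in treated, 1031 to 1514 FPKM in ovariectomized and 404 to 902 FPKM in control femora. Every one of the 10 had a positive estimate in both comparisons with control rats, with medians of 1.19 for ovariectomized and 1.20 for treated rats. DESeq2 called 2 of 10 in each, against 0.435% of all genes for ovariectomized and 1.11% for treated rats.

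Col4a1 followed these markers closely. The correlations of Col4a1 and Col6a1 with the marker lists were chosen after seeing the data, so their p-values are not those of a planned test. Its r with the mean of the adipocyte list was 0.957 and rho 0.933 (exact permutation p of 0.000397 and 0.000750, adjusted over 22 relations 0.00873 and 0.0165). It was 0.841 without treated replicate 3 and control replicate 3 and 0.914 in deviations from the group means. With the 7 tested genes of the chondrocyte list, Col4a1 had r = -0.91 and rho = -0.82 (adjusted exact permutation p of 0.00888 and 0.118), r = -0.77 without control replicates 1 and 3, and r = -0.83 within groups. The 10 chondrocyte markers, led by Col2a1, Acan and Col9a3, summed to 33.0 to 139 FPKM in treated, 39.3 to 54.6 FPKM in ovariectomized and 76.0 to 287 FPKM in control femora, and Matn1 was at 0 in 3 libraries. All 7 tested were lower in ovariectomized than in control femora at an unadjusted edgeR p under 0.05, against 5.05% of all genes (median -1.89). Groups did not overlap in CPM for 6 of the 7, against 8.94%, and edgeR and DESeq2 called 0 after adjustment. For treated against control rats all 7 estimates were negative (median -1.07), 1 at an unadjusted p under 0.05, against 8.81%. The part of either cell type in the level of Col4a1 was not tested.

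The endothelial list, 13 markers led by Vwf, Eng and Tie1, overlapped between all groups, with summed levels of 133 to 176 FPKM in treated, 136 to 158 FPKM in ovariectomized and 140 to 148 FPKM in control femora. Its median log2 fold change was -0.03 for ovariectomized and -0.03 for treated against control rats, with no gene at an unadjusted edgeR p under 0.05. The correlation of Col4a1 with it was r = 0.442, with an adjusted exact permutation p of 0.583. This r was 0.698 in deviations from the group means and -0.02 without treated replicate 3 and ovariectomized replicate 1.

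The fibroblast, periosteum and tendon list, 13 markers led by Lum, Dcn and Thbs4, holds cells known to make type VI collagen. It summed to 253 to 305 FPKM in treated, 332 to 459 FPKM in ovariectomized and 313 to 451 FPKM in control femora, and no treated library reached the other groups in this sum, to which Lum and Dcn contribute most. In the mean log2 CPM of the list, treated replicate 1 lay above control replicate 1. All 13 had negative estimates for treated against ovariectomized rats, with a median of -0.41, and 9 of 13 for treated against control rats, with a median of -0.20. Col6a1 had r = 0.636 with this list and 0.735 with the osteoblast list, with adjusted exact permutation p of 0.199 and 0.129. With the erythroid list it had r = 0.721 (adjusted exact permutation p of 0.114) and with the adipocyte list r = -0.65 (0.129). In deviations from the group means r was 0.731 (fibroblast, periosteum and tendon), 0.639 (osteoblast), 0.17 (erythroid) and -0.495 (adipocyte). Without the 2 libraries farthest from the median of each list, r was 0.45, 0.735, 0.628 and -0.375 in the same order. All 8 erythroid markers had negative estimates for treated against control rats. Of these, 7 had an unadjusted edgeR p under 0.05, against 8.81% of all genes, and DESeq2 called 2, against 1.11%. The 9 osteoblast markers, led by Col1a1, Bglap and Spp1, summed to 1038 to 2357 FPKM in treated, 1097 to 2791 FPKM in ovariectomized and 1770 to 3187 FPKM in control femora, all 9 detected in every library and all with negative estimates in both comparisons with control rats. The part of any of these cells in the level of Col6a1 was not tested.

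**Figure D5:**
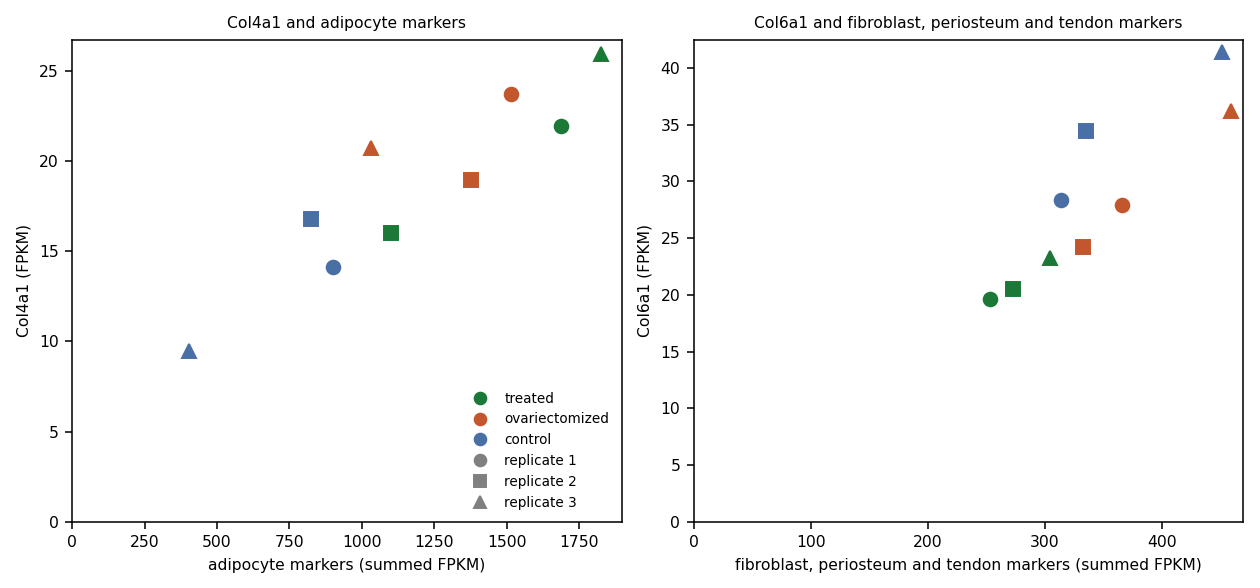
Left, Col4a1 (FPKM) against the summed FPKM of 10 adipocyte markers; right, Col6a1 (FPKM) against that of 13 fibroblast, periosteum and tendon markers; 1 point a library. Col4a1 runs from control replicate 3 at the lower left (9.50 FPKM) to treated replicate 3 at the upper right (25.9 FPKM), and the 3 treated libraries are lowest on both axes of the right panel.

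The remaining 6 lists overlapped in summed level between all 3 groups. For skeletal muscle the ovariectomized and control ranges met only narrowly, at 824 and 832 FPKM. In that comparison all 10 muscle markers were higher at an unadjusted edgeR p under 0.05, against 5.05% of all genes. DESeq2 called 3 of the 10, against 0.435% of all genes, and edgeR called 0 after adjustment. Skeletal muscle markers (10, led by Acta1, Mylpf and Ckm) summed to 618 to 1201 FPKM in treated, 824 to 3616 FPKM in ovariectomized and 269 to 832 FPKM in control femora, and the 8 erythroid markers to 2221 to 2788 FPKM in treated, 2714 to 3145 FPKM in ovariectomized and 2589 to 4092 FPKM in control femora. Pericyte and smooth muscle markers gave 72.9 to 105 FPKM in treated, 92.5 to 114 FPKM in ovariectomized and 79.1 to 94.1 FPKM in control femora. Marrow stroma markers had 260.0 to 414 FPKM in treated, 255 to 424 FPKM in ovariectomized and 316 to 345 FPKM in control femora. Megakaryocyte markers had 1026 to 1371 FPKM in treated, 898 to 1168 FPKM in ovariectomized and 960 to 1359 FPKM in control femora, and Schwann cell markers 23.9 to 37.6 FPKM, 30.1 to 34.3 FPKM and 28.1 to 35.0 FPKM in treated, ovariectomized and control femora. Sox10, a Schwann cell factor, was at 0 in 1 library. None of these 6 lists had an adjusted exact permutation p under 0.05 for its correlation with Col4a1 or Col6a1.

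Other genes of the basement membrane were described from a list of 31, of which 30 had a row and 18 were tested. None was called by edgeR or DESeq2 in any comparison. For ovariectomized against control rats 10 of the 18 had positive estimates, with a median of 0.13. At an unadjusted edgeR p under 0.05, 2 were higher and 0 lower, against 5.05% of all genes. The 2 were Pxdn, the peroxidase that cross-links type IV collagen (0.72 ± 0.21), and Fbln1, the matrix glycoprotein fibulin (0.53 ± 0.22).

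Pxdn had 10.1, 6.83 and 11.6 FPKM in treated femora, 10.6, 8.20 and 8.80 FPKM in ovariectomized femora and 6.54, 4.59 and 5.15 FPKM in control femora. Every ovariectomized and treated library was above every control library in FPKM, but in CPM the treated and control libraries overlapped. For treated against control rats its estimate was 0.72 ± 0.21, with an adjusted p of 0.473 (edgeR) or 0.0822 (DESeq2). On the lower side were Col8a1, a short-chain collagen (-1.85 ± 0.60), Lamb2, a laminin beta chain (-0.83 ± 0.33), and Npnt, an integrin ligand (-0.71 ± 0.30). Each of these and Pxdn had an unadjusted edgeR p under 0.05, against 8.81% of all genes.

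For treated against ovariectomized rats 15 of 18 estimates were below zero and the median was -0.18. Only Col8a1 of the 18 had an unadjusted edgeR p under 0.05 there (-1.60 ± 0.59), against 5.2% of all genes. It had 0.748, 0.955 and 0.850 FPKM in treated femora, 5.15, 0.987 and 1.34 FPKM in ovariectomized femora and 3.37, 3.39 and 1.84 FPKM in control femora. Among the ovariectomized libraries replicate 1 was far above the other 2.

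Among relatives and receptors of type VI collagen, 4 of 6 genes were tested and none was called. For treated against control rats 3 of the 4 had negative estimates, with a median of -0.38. Cspg4, the NG2 proteoglycan that binds type VI collagen, gave -0.57 ± 0.18, and Antxr1, a cell surface receptor for matrix, -0.45 ± 0.16. Both had an unadjusted edgeR p under 0.05, against 8.81% of all genes. Col6a5, a relative of Col6a3, gave -0.32 ± 0.19 and Antxr2, the capillary morphogenesis receptor, 0.18 ± 0.15.

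Of the matrix receptors 10 of 11 were tested and none was called. Itga7, the laminin-binding integrin of muscle, had 2.24, 1.504 and 3.21 FPKM in treated femora, 2.53, 2.65 and 3.17 FPKM in ovariectomized femora and 1.09, 1.70 and 1.12 FPKM in control femora. The ovariectomized libraries stood clear of the control libraries, with a log2 fold change of 1.04 ± 0.29 and an adjusted p of 0.892 (edgeR) or 0.0821 (DESeq2). In the same comparison skeletal muscle markers had 10 of 10 positive estimates with a median of 1.68, and their part in the level of Itga7 was not tested. Ddr1, a collagen receptor kinase, gave 0.80 ± 0.35. Itga1, an integrin that binds type IV collagen, gave 0.51 ± 0.18 for treated against control rats, and Bcam, a laminin receptor, -0.67 ± 0.23 for treated against ovariectomized rats.

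The genes for collagen folding and secretion held 2 calls by DESeq2 and none by edgeR, both for treated against control rats. DESeq2 called 1.11% of all genes there. Plod2, a lysyl hydroxylase, had 11.2, 20.9 and 11.7 FPKM in treated femora, 22.7, 12.3 and 25.4 FPKM in ovariectomized femora and 28.9, 24.7 and 36.8 FPKM in control femora. The treated libraries were below all control libraries, by a log2 fold change of -1.13 ± 0.32 and an adjusted p of 0.0280 (DESeq2). P4ha1, a subunit of prolyl hydroxylase, had 9.45, 11.4 and 11.5 FPKM in treated femora, 11.2, 11.3 and 13.0 FPKM in ovariectomized femora and 14.7, 12.1 and 20.8 FPKM in control femora. It too was lower in every treated than in every control library, by -0.64 ± 0.17, with an adjusted p of 0.0423 (DESeq2). These 2 calls were not repeated with libraries left out. Of the 9 genes tested, 7 had negative estimates in this comparison, with a median of -0.22, and all 9 for treated against ovariectomized rats, with a median of -0.18.

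Fibrillar collagens, 5 genes tested, gave no call by either tool and varied widely between libraries. Col1a1, the main collagen of bone, had 334, 845 and 213 FPKM in treated femora, 174, 409 and 1057 FPKM in ovariectomized femora and 461, 616 and 1002 FPKM in control femora. Groups overlapped, and the SE of 0.69 was larger than the estimates of -0.27 for treated against ovariectomized and -0.38 for ovariectomized against control rats. Of the 5, 4 had negative estimates for treated against control rats, with a median of -0.65.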

How the data were processed

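Gene counts and FPKM were deposited in 1 table, per the file headers; FPKM had been scaled by the authors for length and depth, and is 0.0001 where the count is 0. How the counts were made, the genome build, strandedness and any pairing of libraries were not given in the sources used here; the submitters' processing notes name fastp, HISAT2 and StringTie. From the counts, 13886 genes averaging 1 FPKM or more over all libraries were fitted with edgeR 4.0.16 in R 4.3.3: TMM, 1 quasi-likelihood model of all 9 libraries, 3 contrasts, Benjamini-Hochberg over all genes, threshold 0.05. Where no tool is named an adjusted p is edgeR's. The fit had a common biological coefficient of variation of 0.262 and 2.37 prior degrees of freedom. Sampling alone gives 100 counts an SD of about 10%. Alternatives were DESeq2 1.42.0, limma 3.58.1 on log2(FPKM + 1), median-of-ratios scaling, other filters, 2 groups only, a replicate block, and each library left out. The script for edgeR was checked on simulated counts.

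CPM values carry TMM factors. Correlations use log2 CPM, with all orders of the 9 libraries as exact permutations; marker lists enter as the mean log2 CPM of their tested genes. Genes named are the 10 studied, up to 4 per pathway list and comparison with the smallest p, the 5 most like Col4a1 and Col6a1, and the 3 highest of a marker list. The 10 genes and all lists were chosen with earlier results of these data known. Where rows share a symbol the row of highest mean FPKM was used. Lama3, Mia3, Col1a2, Pecam1, Tnxb, Myh1, Myh2 and Kitl were not analysed here. Python 3.11.15 and matplotlib 3.10.9 were used for figures.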

Additional observations from a re-analysis of the deposited data

How the results depend on the processing

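With DESeq2 in place of edgeR the number of the 8 genes called for treated against control rats was 1 (Col6a1) and not 0; the cause was not tested. The counts of 0 held in the edgeR and limma settings run, and the genes named as called by DESeq2 have no adjusted edgeR call. All signs of the 10 genes were kept under median-of-ratios scaling, no filter, a filter at 5 FPKM (which dropped Col15a1 and Col18a1), DESeq2, 2 groups only and the replicate block; limma turned 1, Lama4 for treated against ovariectomized rats, to 0.0044. Leaving out each library in turn, log2 fold changes that changed sign ranged for treated against ovariectomized rats from -0.18 to 0.14 (Col4a1), -0.295 to 0.15 (Col4a2), -0.35 to 0.047 (Col18a1), -0.17 to 0.12 (Lama4) and -0.19 to 0.093 (Nid1), for ovariectomized against control rats from -0.093 to 0.28 (Hspg2), and for treated against control rats from -0.14 to 0.24 (Col18a1) and -0.33 to 0.037 (Hspg2). The median of the 8 for treated against control rats ranged from -0.04 to 0.27. Other estimates that moved by over 1.5 times with 1 library, without a change of sign, included Lama4 for treated against control rats (0.09 without treated replicate 3), Col18a1 and Col15a1 for ovariectomized against control rats (0.06 and 0.11 without ovariectomized replicate 3), Col6a1 in that comparison (-0.17 without ovariectomized replicate 2) and Col6a3 for treated against ovariectomized rats (-0.06 without ovariectomized replicate 3). Log2 ratio differences that changed sign ranged from -0.12 to 0.0026 (Col4a2 over Col4a1, treated against ovariectomized), -0.022 to 0.052 (Col6a2 over Col6a1, ovariectomized against control) and -0.31 to 0.15 (Col6a3 over Col6a1, treated against control). With the replicate number as a block (replicate block) the median of the 8 was -0.10 for treated against ovariectomized rats. It was 0.24 for ovariectomized against control and 0.12 for treated against control rats, and 0 genes of the 8 were called. Same-numbered libraries correlated at -0.13 to 0.18, and not every library correlated best with its own number. With 3 libraries a group, such weak correlations cannot decide whether the numbers pair libraries. DESeq2 without each library and the medians with Col6a3 and Hspg2 were added after seeing the data. So were the correlations of Col4a1 and Col6a1 with the marker lists and the ratio of type IV to type VI collagen. The lowest count of any of the 10 genes was 524.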
